A study of Homo sapiens with 4 samples.

Results

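The 34 genes described here encode proteins of homologous recombination and of the Fanconi anaemia pathway. They were chosen by symbol from the 33538 genes of the count table, each symbol matched 1 gene, and all 34 were measured, with a mean of at least 1 CPM (UMI counts brought to a common library total) over the libraries. Homologous recombination mends a broken chromosome by copying the intact sister copy, and therefore works mainly in S and G2 phase. The ATM and ATR kinases signal the damage. Nucleases cut back the broken ends, and BRCA1 with BARD1, PALB2 and BRCA2 bring the recombinase to the single strand. The paralogs RAD51C, RAD51D, XRCC2 and XRCC3 and the RAD54 motors assist strand exchange, and helicases with RMI1 and RMI2 undo the joined molecules. The Fanconi core complex attaches ubiquitin to FANCD2 and FANCI at DNA strands that are chemically crosslinked to each other, and hands the lesion on to the same machinery. In breast epithelium these genes are best known for BRCA1, BRCA2 and PALB2, whose inherited loss raises the risk of breast cancer.

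The cells were BT474, an established human breast cancer line with estrogen receptor expression and HER2 amplification. They were treated for 4 h with DMSO as vehicle, with 100 nM fulvestrant, which blocks and degrades the estrogen receptor, with 200 nM neratinib, an irreversible inhibitor of the HER2 family of receptor kinases, or with both drugs at these doses. RNA was read as single-cell 3′ end counts, with 1 library for each treatment and 1 cell line throughout. No difference between treatments therefore has a replicate check, no test was run, and cells were not used as replicates.

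Cells with at least 5000 UMIs and 500 genes were kept, which gave 4301 DMSO, 3485 fulvestrant, 3507 neratinib and 3876 double-treated cells, 15169 in all. Median depth was 22007 to 23010 UMIs per cell, and the libraries held 82967775 to 102504452 UMIs in these cells. The median share of mitochondrial UMIs was 16.2% in DMSO and 16.7% with fulvestrant, but 21.1% with neratinib and 21.1% with both drugs. There were 23 barcode sequences that marked a cell in more than 1 library (46 cells). All 8 luminal epithelial markers were measured, with summed levels of 7951.5, 7674.2, 5672 and 5022.5 CPM in DMSO, fulvestrant, neratinib and both drugs. Of the markers of other cell types, 1 of 5 fibroblast, 0 of 5 immune and 1 of 4 endothelial genes reached 1 CPM. Summed levels were 10.2 to 12.4, 0.956 to 1.15 and 1.78 to 2.49 CPM, and COL1A2 and CD3E were at 0. Per library the 34 genes ranged from 228 UMIs (FANCE, neratinib) to 20194 UMIs (RAD51C, DMSO). Capture differs from gene to gene in 3′ end counts, so levels are compared between libraries and phases and not between genes.

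Vehicle-treated cells carried most of these transcripts in S and G2M phase. Phase was called for each cell from 35 S genes and 54 G2M genes, none of which is a member or another listed repair gene. In DMSO, 29 of the 34 genes were higher in S than in G1 cells and 1 was lower, and 27 were higher in G2M than in G1 cells and 3 were lower. Here and in what follows, a gene was called higher or lower (the size rule) where its log2 ratio was at least 0.32 in size and the 95% interval of that ratio, which reflects the 2 UMI counts alone, did not include 0. Of all 12136 measured genes, 17.2% were higher and 19.8% lower in S than in G1 cells, and 17.2% were higher and 23.9% lower in G2M than in G1 cells. The members' median log2 ratio was 2.00 in S and 1.56 in G2M against G1, beside -0.06 and -0.05 over all measured genes. Set against G2M cells, S cells were higher for 22 members and lower for 1, CHEK2, beside 15.9% higher and 11% lower among all measured genes. Members called in all 4 libraries at once were 27 as higher in S than in G1, 25 in G2M than in G1 and 19 in S than in G2M. The shares of all measured genes called in all 4 libraries were 10.8%, 11.5% and 6.3%. Depth rose with phase, from a median of 19928 UMIs in G1 to 26798 in S and 30848 in G2M cells of DMSO, and CPM divides by that depth. With phase called after each cell was thinned to 5000 UMIs the counts stayed at 29 and 27.

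**Figure D1:**
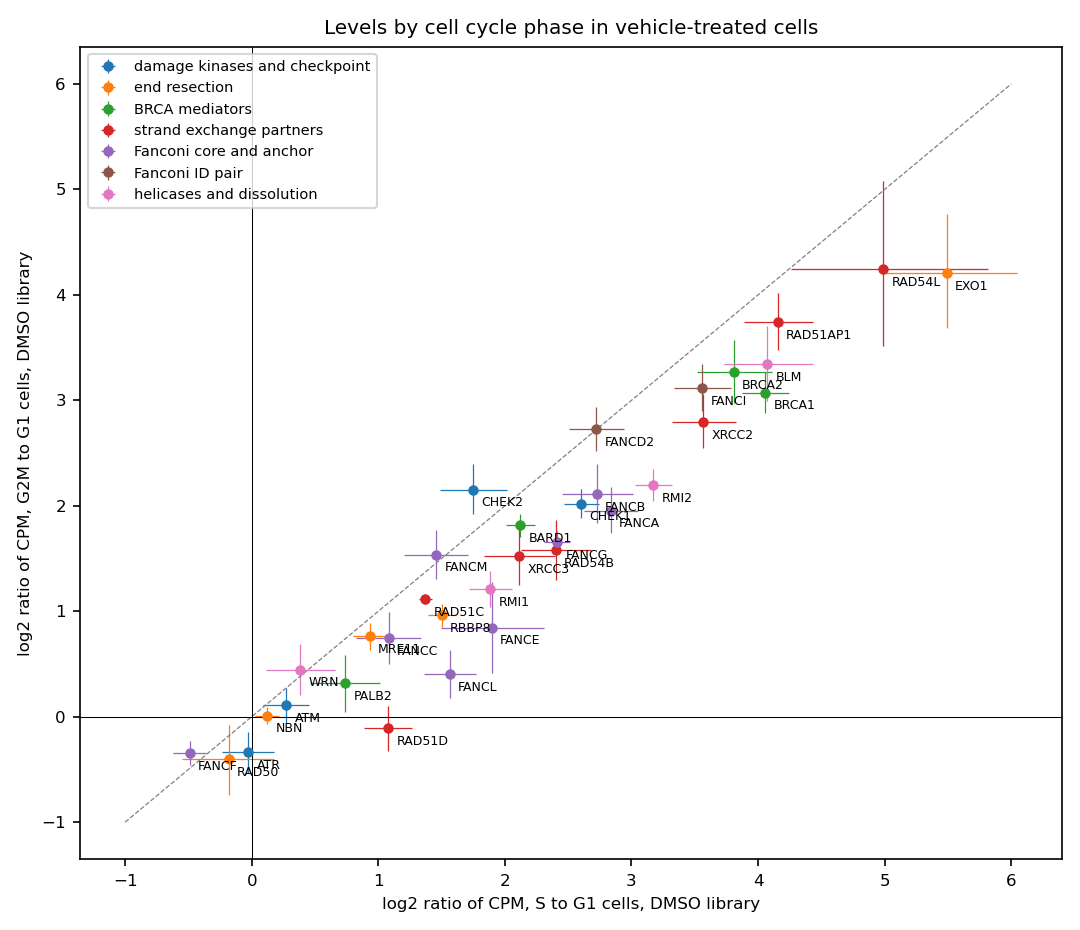
Log2 ratio of CPM in S to G1 cells (x axis) and in G2M to G1 cells (y axis) for the 34 genes in the DMSO library, coloured by role, with 95% counting intervals as bars and the line of equal ratios dashed. EXO1 and RAD54L lie at the far right at 5.49 and 4.99 in S, most genes lie below the dashed line, and ATM, ATR, NBN, RAD50 and FANCF lie near or below 0.

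EXO1 had the highest S to G1 ratio of the 34 genes, followed by RAD54L and RAD51AP1. EXO1, the exonuclease that lengthens the resected end, was at 0.692 CPM in G1, 31.1 in S and 12.8 in G2M cells of DMSO, a log2 ratio of 5.49 [4.98, 6.05] for S against G1. G1 cells were thus close to empty of it, on 32 UMIs. RAD54L, a motor protein that remodels the joint between broken and intact strand, was at 0.346 CPM in G1, 11.0 in S and 6.56 in G2M cells (4.99 [4.26, 5.82]), with 16 UMIs in G1. RAD51AP1, which stimulates strand invasion, was at 2.66 CPM in G1, 47.4 in S and 35.6 in G2M cells (4.16 [3.88, 4.44]). The helicase BLM was at 1.66 CPM in G1, 28.0 in S and 16.9 in G2M cells (4.07 [3.73, 4.43]), and its partners RMI1 and RMI2 had S to G1 ratios of 1.89 and 3.17. RMI1 thus lay below the members' median and RMI2 and BLM above it. The S to G1 ratio ran from 5.19 to 5.75 for EXO1, 4.93 to 5.52 for RAD54L and 3.61 to 4.20 for BLM over the 4 libraries.

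The mediators BRCA1 and BRCA2 had profiles about as steep as that of BLM. BRCA1, a ubiquitin ligase subunit and scaffold, was at 5.67 CPM in G1, 94.2 in S and 47.7 in G2M cells (4.06 [3.87, 4.25] for S against G1), and BRCA2, the recombinase loader, at 2.36 CPM in G1, 33.0 in S and 22.7 in G2M cells (3.81 [3.52, 4.11]). S cells thus held 16.6 and 14 times the G1 level of these genes. BARD1, the partner that BRCA1 needs for its ligase activity, had a shallower profile at 20.1 CPM in G1, 87.5 in S and 70.6 in G2M cells (2.12 [2.01, 2.24]). PALB2, which joins BRCA1 to BRCA2, was shallower still, at 5.32 CPM in G1, 8.87 in S and 6.62 in G2M cells (0.74 [0.46, 1.01]), and passed the size rule for S against G1 in 2 of the 4 libraries. Subunits of the same assemblies thus had unlike profiles.

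The recombinase paralogs also differed among themselves. XRCC2 was at 3.31 CPM in G1, 39.2 in S and 23.0 in G2M cells (3.57 [3.32, 3.83]), XRCC3 had a ratio of 2.11 [1.83, 2.40], and RAD51C, at 114 CPM in G1, 294 in S and 246 in G2M cells, one of 1.37 [1.32, 1.42]. RAD51D was at 9.64 CPM in G1, 20.3 in S and 8.93 in G2M cells. It was 2.11-fold higher in S than in G1 cells, but G2M cells stood at the G1 level (-0.11 [-0.33, 0.10]). RAD54B, a relative of RAD54L, was at 3.31 CPM in G1, 17.5 in S and 9.88 in G2M cells (2.40 [2.13, 2.68]).

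Among Fanconi genes the ID pair FANCD2 and FANCI, the substrates of the pathway, were at 2.72 and 3.56 for S against G1. FANCD2 stood as high in G2M as in S cells, at 5.10 CPM in G1, 33.6 in S and 33.8 in G2M cells. Core subunits FANCA, FANCB and FANCG had ratios of 2.84, 2.73 and 2.41, while FANCC and FANCE were at 1.08 and 1.90. FANCL, the ubiquitin ligase of the core, was at 7.33 CPM in G1, 21.7 in S and 9.70 in G2M cells, so that S cells stood apart from G2M as well as from G1. FANCM, which anchors the core on DNA, was at 1.46 in S and 1.54 in G2M. FANCF went the other way: 39.3 CPM in G1, 28.0 in S and 31.0 in G2M cells, with -0.49 [-0.62, -0.36] for S and -0.34 [-0.46, -0.23] for G2M against G1. It was lower than in G1 in both phases in 4 of 4 libraries.

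ATM, ATR, NBN and RAD50, which act in break sensing, and FANCF were the members not called higher in S than in G1 cells of DMSO. ATM, the kinase that responds to double-strand breaks, was at 14.7 CPM in G1, 17.8 in S and 15.9 in G2M cells (0.27 [0.09, 0.45] for S against G1). ATR, the kinase that responds to single-stranded DNA, was at 12.9 CPM in G1, 12.7 in S and 10.2 in G2M cells, -0.03 in S and -0.34 [-0.53, -0.14] in G2M against G1. NBN and RAD50, which form the break-binding MRN complex with the nuclease MRE11, were at 0.12 [0.03, 0.21] and -0.18 [-0.55, 0.18] for S against G1. MRE11 itself was higher in S, at 0.93 [0.80, 1.07], as was RBBP8, which encodes CtIP, the factor that starts resection, at 1.5 [1.39, 1.61]. The checkpoint kinases were cycling genes: CHEK1, which acts below ATR, was at 12.3 CPM in G1, 74.7 in S and 49.9 in G2M cells, and CHEK2, which acts below ATM, at 4.19 CPM in G1, 14.1 in S and 18.7 in G2M cells. CHEK2 was the only member higher in G2M than in S cells of DMSO. WRN, a helicase, was higher than in G1 by 0.39 [0.11, 0.66] in S and 0.45 [0.21, 0.69] in G2M cells, a small difference beside those of BLM. As another arm of break repair, 9 measured end joining genes had 5 higher and 1 lower in S than in G1 cells of DMSO, with a median log2 ratio of 0.48.

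Promoter sequence was read because so many members shared the S phase pattern, in which E2F factors are textbook regulators. RefSeq windows (GRCh38.p14) of 250 bases before to 50 bases after the start were found for 29 of the 34 genes, 40 windows in all. The E2F words TTTGGCGC or TTTCCCGC or TTTCGCGC or TTTGCCGC, searched on both strands, occurred in 6 of 29 genes (20.7%), against 3.99% of all 27305 genes in the table and 6.86% of the 9203 that were measured here. The sites of these 6 genes are given here with up to 30 bases on each side, or as 30 bases in all where the window reaches the transcript or ends, 5′ to 3′ on the gene's own strand, with the E2F word in capitals.
EXO1, chr1:241848197-241848226, plus strand: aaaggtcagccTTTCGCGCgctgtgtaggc
XRCC2, chr7:152676102-152676131, minus strand: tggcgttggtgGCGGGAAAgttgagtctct
FANCA, chr16:89816782-89816849, minus strand: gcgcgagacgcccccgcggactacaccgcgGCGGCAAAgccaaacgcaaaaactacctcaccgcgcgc
FANCC, chr9:95317844-95317911, minus strand: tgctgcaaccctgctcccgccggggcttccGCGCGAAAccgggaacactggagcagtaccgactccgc
FANCC, chr9:95317718-95317785, minus strand: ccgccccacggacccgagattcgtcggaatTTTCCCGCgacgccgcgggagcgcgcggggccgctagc
FANCD2, chr3:10026424-10026453, plus strand: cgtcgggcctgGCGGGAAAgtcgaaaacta
RMI1, chr9:83980762-83980791, plus strand: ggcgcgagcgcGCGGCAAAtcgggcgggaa
The word of EXO1, the gene with the highest S to G1 ratio, covers bases 5 to 12 from its start, that of XRCC2 bases 22 to 29, and that of FANCD2 straddles the start from base -2 to 6. The words of FANCA (bases -172 to -165), FANCC (-172 to -165 and -46 to -39) and RMI1 (-32 to -25, in the second of its windows) lie before the start. S to G1 ratios of these 6 genes ran from 1.08 (FANCC) to 5.49 (EXO1), and BRCA1, BRCA2, RAD54L and BLM, with ratios of 3.81 and above, held none of the 4 words in their windows. The CHR words TTTGAA or TTCGAA were in 2 of 29 genes (6.90%), against 15.1% of measured genes. The CCAAT box was in 14 (48.3% against 43.8%) and the NRF1 motif in 1, RBBP8 (3.45% against 2.86%). A word in a window is a description of sequence, and binding was not measured.

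Neratinib was compared in 2 pairs of libraries that share none: neratinib against DMSO, and both drugs against fulvestrant. The drug was accompanied by lower levels of a scattered subset of these genes and by higher MRE11, while BRCA1, BRCA2, PALB2 and FANCD2 stayed under the size rule in both pairs. RAD51D, XRCC3 and RBBP8 had the lowest ratios. Against DMSO 1 member was higher and 11 were lower, beside 13.6% higher and 33.3% lower among all measured genes. Against fulvestrant 3 were higher and 11 lower, beside 13.8% and 32.4%. The members' share of lower genes (32.4% in each pair) was thus near the background, and so was their median log2 ratio of -0.18 and -0.15, with -0.16 and -0.15 over all measured genes. In both pairs at once 9 members were lower (26.5%, against 28.3% of all measured genes) and 1 was higher (2.94%, against 11.4%).

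The scaling bears on these counts. The shift of the median gene by -0.16 shrank to -0.06 under median-of-ratios scaling, and the split of members became 2 higher and 8 lower against DMSO (17.8% and 25.1% of all measured genes) and 5 higher and 9 lower against fulvestrant (17.8% and 25.5%). The 13 mitochondrial transcripts took the larger share of counts in the neratinib libraries that is given above. Without the cells over 20% mitochondrial UMIs, which left 1317 neratinib cells of 3507, the members' median was -0.0043 against DMSO and 0.033 against fulvestrant, above the -0.13 and -0.11 of all measured genes. Against DMSO 2 members were then higher and 9 lower, beside 13.6% and 29.3%, and against fulvestrant 7 were higher and 8 lower, beside 14.2% and 27.9%. With this choice of cells the members' medians were thus not near the background, as they were over all cells. The share of S cells was 19.8% [18.6, 21.0] under DMSO and 22.0% [20.6, 23.4] under fulvestrant, against 14.8% [13.6, 16] under neratinib and 16.4% [15.2, 17.6] under the combination. The G2M shares were 26.1%, 23.7%, 28.5% and 25.1%. Phase calls rest on transcripts that can differ with the drug themselves. Of the 35 S genes behind them 13 were lower (37.1%) and 0 higher with neratinib against DMSO, beside 33.3% and 13.6% of all measured genes. Of the 54 G2M genes 12 were higher (22.2%) and 9 lower (16.7%) in that pair. The part of these genes in the phase shares was not tested.

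**Figure D2:**
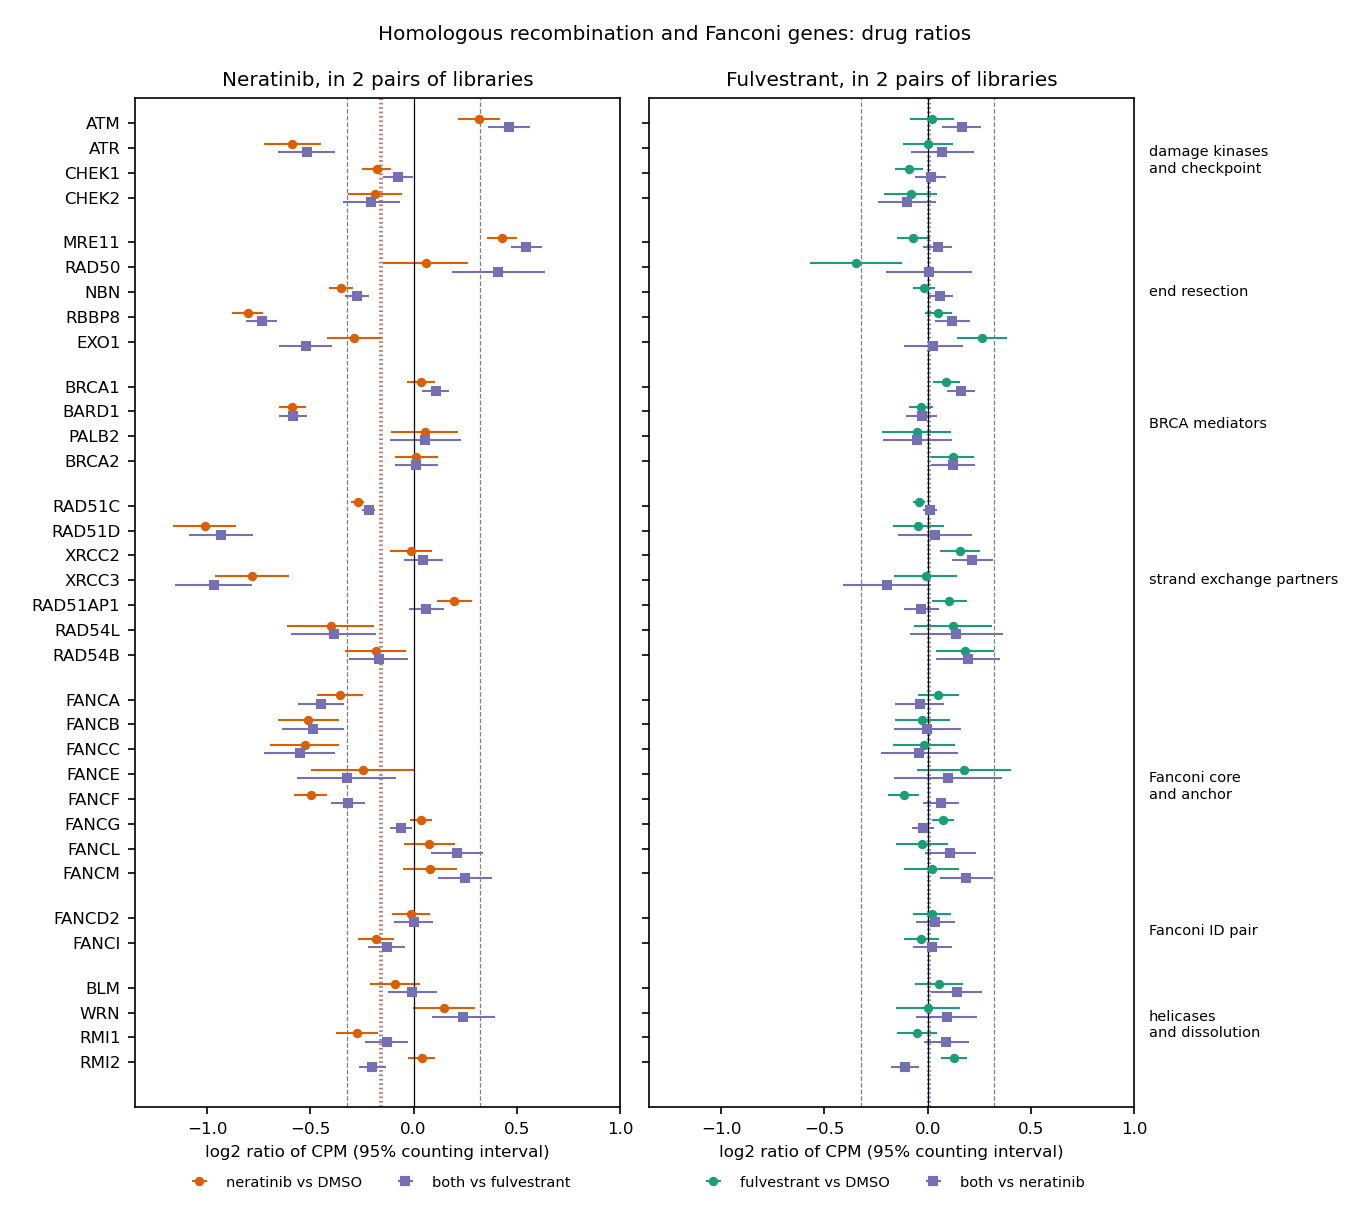
Log2 ratio of CPM for each of the 34 genes, grouped by role, for neratinib (left) and fulvestrant (right), each in 2 pairs of libraries that share none. Bars are 95% counting intervals, dashed lines the limits of the size rule and dotted lines the median of all measured genes. RAD51D, XRCC3, RBBP8, ATR and BARD1 lie far to the left in both neratinib pairs and MRE11 to the right, while the fulvestrant panel stays between the dashed lines for every gene but RAD50.

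Damage kinases came first and moved apart. ATR was at 12 CPM under DMSO and 12 under fulvestrant, against 7.98 under neratinib and 8.38 under the combination. Both libraries with neratinib lay below both without it, by -0.59 [-0.73, -0.45] and -0.52 [-0.66, -0.38] in log2 ratio. ATM was at 15.8 CPM under DMSO and 16 under fulvestrant, against 19.6 under neratinib and 22.0 under the combination, higher by 0.46 [0.36, 0.56] against fulvestrant and just under the size rule against DMSO (0.32 [0.22, 0.42]). CHEK1 (38.4 CPM under DMSO and 36.1 under fulvestrant, against 34 under neratinib and 34.3 under the combination) and CHEK2 (11.1 CPM under DMSO and 10.5 under fulvestrant, against 9.77 under neratinib and 9.12 under the combination) passed the rule in neither pair, with ratios from -0.21 to -0.07.

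The subunits of the MRN complex went different ways. MRE11, its nuclease, was at 28.3 CPM under DMSO and 26.9 under fulvestrant, against 38.0 under neratinib and 39.3 under the combination, which gave 0.43 [0.35, 0.50] and 0.55 [0.47, 0.62], and was the only member higher in both pairs. NBN, its regulatory subunit, was at 60.1 CPM under DMSO and 59.3 under fulvestrant, against 47.0 under neratinib and 49.1 under the combination. It passed the rule as lower against DMSO (-0.35 [-0.41, -0.30]) but not against fulvestrant (-0.27 [-0.33, -0.22]), and it lost the call under median-of-ratios scaling (-0.35 became -0.26). RAD50, the ATPase of the complex, was at 4.18 CPM under DMSO and 3.29 under fulvestrant, against 4.35 under neratinib and 4.37 under the combination. Its ratio against fulvestrant of 0.41 [0.18, 0.64] came with a low fulvestrant library, since neratinib and DMSO differed by 0.06 [-0.15, 0.26].

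Among resection genes RBBP8 stood out. It was at 42.4 CPM under DMSO and 44.0 under fulvestrant, against 24.3 under neratinib and 26.4 under the combination, 1.75-fold lower with neratinib than with DMSO (-0.80 [-0.88, -0.73]) and 1.67-fold lower with both drugs than with fulvestrant (-0.74 [-0.81, -0.66]). Barcodes with 20 to 100 UMIs, which can hold free RNA, held it at 33.9 and 35.6 CPM without neratinib and 18.0 and 17.1 CPM with it. EXO1, the long-range nuclease, was at 11.3 CPM under DMSO and 13.6 under fulvestrant, against 9.29 under neratinib and 9.47 under the combination. It passed as lower against fulvestrant (-0.52 [-0.65, -0.39]) but not against DMSO (-0.29 [-0.42, -0.16]), and with the phase shares of DMSO its ratio against fulvestrant was -0.30 and under the rule.

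Of the BRCA mediators BARD1 alone was lower. It was at 51.5 CPM under DMSO and 50.3 under fulvestrant, against 34.3 under neratinib and 33.6 under the combination, with ratios of -0.59 [-0.65, -0.52] and -0.58 [-0.65, -0.52]. Its partner BRCA1 was at 39.0 CPM under DMSO and 41.5 under fulvestrant, against 39.9 under neratinib and 44.7 under the combination, with 0.04 [-0.03, 0.10] and 0.11 [0.04, 0.17], so that the intervals of the partners lay apart in each pair. BRCA2 (15.8 CPM under DMSO and 17.2 under fulvestrant, against 16 under neratinib and 17.4 under the combination) and PALB2 (6.53 CPM under DMSO and 6.29 under fulvestrant, against 6.77 under neratinib and 6.54 under the combination) had ratios between 0.01 and 0.06 in these pairs. For BRCA2 the 95% interval of the neratinib to DMSO ratio ran from -0.09 to 0.12, which bounds any difference between these libraries for counting error only.

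The recombinase paralogs were split, with RAD51D and XRCC3 lower in both pairs and RAD51C and XRCC2 under the rule. RAD51D was at 11.8 CPM [11.1, 12.4] under DMSO and 11.4 CPM [10.7, 12.2] under fulvestrant, against 5.83 CPM [5.33, 6.38] under neratinib and 5.97 CPM [5.48, 6.5] under the combination. Its ratios were -1.01 [-1.17, -0.86] (2.02-fold lower) and -0.93 [-1.09, -0.78]. XRCC3 was at 7.87 CPM [7.34, 8.44] under DMSO and 7.82 CPM [7.23, 8.44] under fulvestrant, against 4.58 CPM [4.13, 5.06] under neratinib and 4.00 CPM [3.60, 4.43] under the combination. Its ratios were -0.78 [-0.96, -0.60] and -0.97 [-1.16, -0.78]. For both genes the 2 libraries with neratinib lay well below the 2 without it, and their intervals did not overlap. RAD51C, which pairs with XRCC3 in 1 complex and with RAD51D and XRCC2 in another, was at 197 CPM under DMSO and 192 under fulvestrant, against 163 under neratinib and 165 under the combination, with -0.27 [-0.30, -0.24] and -0.22 [-0.25, -0.19]. XRCC2 was at 17.7 CPM under DMSO and 19.7 under fulvestrant, against 17.5 under neratinib and 20.4 under the combination and passed the rule in neither pair (-0.01 and 0.05). Partners in the same complexes therefore had different ratios.

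The motor RAD54L was at 4.73 CPM under DMSO and 5.15 under fulvestrant, against 3.58 under neratinib and 3.94 under the combination, on 297 to 485 UMIs per library, with -0.40 [-0.62, -0.19] and -0.39 [-0.59, -0.18]. Under median-of-ratios scaling it was under the rule in both pairs (-0.30 and -0.30), and it was also under the rule in both with the phase shares of DMSO. RAD54B (8.59 CPM under DMSO and 9.73 under fulvestrant, against 7.56 under neratinib and 8.65 under the combination) was at -0.18 and -0.17, and RAD51AP1 (23.3 CPM under DMSO and 25.1 under fulvestrant, against 26.7 under neratinib and 26.2 under the combination) at 0.20 and 0.06.

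Within the Fanconi core, FANCC, a scaffold subunit, was at 8.03 CPM under DMSO and 7.94 under fulvestrant, against 5.57 under neratinib and 5.41 under the combination, with -0.53 [-0.70, -0.36] and -0.55 [-0.72, -0.38]. FANCB, which sits with FANCL in the catalytic module, was at 10.1 CPM under DMSO and 9.96 under fulvestrant, against 7.12 under neratinib and 7.11 under the combination (-0.51 and -0.49). FANCA was at 17.1 CPM under DMSO and 17.7 under fulvestrant, against 13.4 under neratinib and 13 under the combination (-0.36 and -0.45). These 3 were lower in both pairs, and of them FANCC kept its call in both pairs under all 7 alternatives of cell choice, scaling and phase mix. Without the cells over 20% mitochondrial UMIs FANCB and FANCA were under the rule in both pairs, FANCB at -0.30 and -0.24 and FANCA at -0.30 and -0.14. With the phase shares of DMSO FANCA was under the rule in both pairs as well. FANCF, an adaptor subunit, was at 34.1 CPM under DMSO and 31.4 under fulvestrant, against 24.1 under neratinib and 25.2 under the combination, lower against DMSO (-0.50 [-0.58, -0.42]) and at the edge of the rule against fulvestrant (-0.32 [-0.40, -0.24]). FANCE (3.26 CPM under DMSO and 3.68 under fulvestrant, against 2.75 under neratinib and 2.94 under the combination) rests on 228 to 334 UMIs per library and passed against fulvestrant by a narrow margin (-0.32 [-0.57, -0.08]), which it lost under 5 of the 7 alternatives.

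FANCG, FANCL and FANCM did not share that direction. FANCG was at 63.3 CPM under DMSO and 66.6 under fulvestrant, against 64.9 under neratinib and 63.9 under the combination, FANCL at 11.3 CPM under DMSO and 11.1 under fulvestrant, against 11.9 under neratinib and 12.8 under the combination and FANCM at 10.0 CPM under DMSO and 10.2 under fulvestrant, against 10.6 under neratinib and 12.1 under the combination. None of the 3 passed the rule in a neratinib pair, with ratios from -0.06 (FANCG) to 0.25 (FANCM). Of the ID pair FANCD2 was level, at 20.8 CPM under DMSO and 21.1 under fulvestrant, against 20.6 under neratinib and 21.2 under the combination. FANCI was at 24.5 CPM under DMSO and 24.0 under fulvestrant, against 21.6 under neratinib and 21.9 under the combination. Its ratios of -0.18 [-0.27, -0.09] and -0.13 [-0.22, -0.04] had intervals below 0 and were under the rule. Helicase and dissolution genes passed the rule in neither pair: BLM was at 12.4 CPM under DMSO and 12.9 under fulvestrant, against 11.7 under neratinib and 12.9 under the combination, RMI1 at 18.9 CPM under DMSO and 18.2 under fulvestrant, against 15.6 under neratinib and 16.7 under the combination, RMI2 at 40.7 CPM under DMSO and 44.5 under fulvestrant, against 41.8 under neratinib and 38.7 under the combination, and WRN had ratios of 0.15 and 0.24.

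Ratios were then taken within a phase, since the S share differed between libraries. In G1 cells 10 members were higher and 8 lower with neratinib than with DMSO (all measured genes, 14.6% and 31.5%), with a median of 0.03 against -0.15 over all measured genes. In S cells 1 was higher and 9 lower (11.1% and 33.5%), and in G2M cells 0 were higher and 9 lower (10.7% and 31.1%). Against fulvestrant, G1 cells had 10 higher and 7 lower (15.1% and 30.3%), S cells 3 and 9 (11.5% and 31.8%) and G2M cells 4 and 8 (10.6% and 29.7%). RAD51D, XRCC3, RBBP8, ATR, BARD1 and FANCF were lower in all 3 phases in both pairs. The share of all measured genes that met this joint condition was not counted, so it is not known to be particular to the members.

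RAD51D, for example, had neratinib to DMSO ratios of -1.12 in G1, -0.88 in S and -0.77 in G2M cells, and -1.07 in G1, -0.70 in S and -0.74 in G2M cells in the other pair. For RBBP8 they were -0.65 in G1, -0.77 in S and -0.79 in G2M cells against DMSO, and for ATR -0.59 in G1, -0.68 in S and -0.51 in G2M cells. MRE11 was higher in G1 by 0.69 [0.57, 0.82] against DMSO and 0.77 [0.64, 0.90] against fulvestrant, more than over all cells, and by 0.38 and 0.46 in S cells. In G2M cells it passed the rule against fulvestrant (0.51 [0.38, 0.64]) but not against DMSO (0.28 [0.16, 0.40]). Members higher in G1 cells in both pairs were ATM, BRCA1, FANCM, MRE11, PALB2, WRN and XRCC2. The share of all measured genes higher in G1 cells in both pairs was not counted. Of the members just named, MRE11 was also higher in S cells in both pairs and ATM in S cells against fulvestrant (0.33 [0.12, 0.54]). The others passed the rule in S cells in neither pair. BRCA1 was at 5.67 and 6.05 CPM in G1 cells without neratinib and 9.45 and 9.47 CPM with it (0.74 [0.51, 0.97] and 0.65 [0.41, 0.89]). In S cells its ratios were 0.06 and 0.13, and in G2M cells it was at 0.16 [0.06, 0.26] against DMSO and, past the rule, 0.39 [0.28, 0.50] against fulvestrant. FANCM was likewise higher in G1 cells, by 0.61 [0.36, 0.86] and 0.86 [0.61, 1.12], with -0.14 and 0.02 in S cells. Of the 35 S genes behind the phase call 13 were lower with neratinib against DMSO, as given above beside the share of all measured genes. The part of the S genes in the G1 ratios was not tested.

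**Figure D3:**
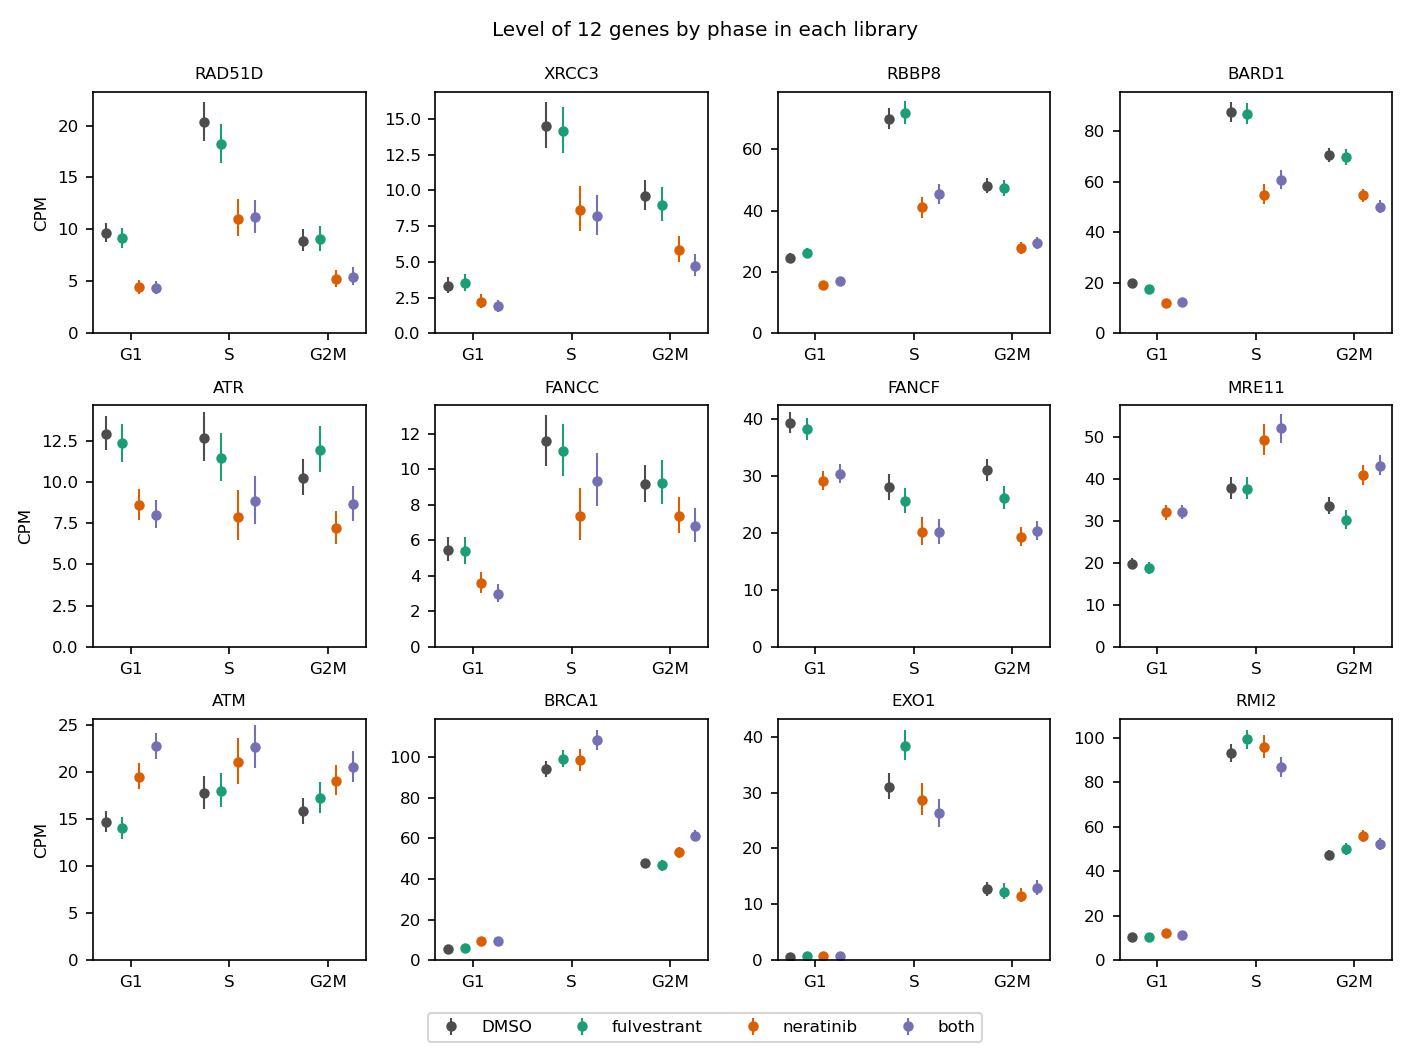
Level in CPM (y axis, from 0) of 12 genes in G1, S and G2M cells of each library, with 95% Poisson counting intervals as bars. RAD51D, XRCC3, RBBP8, BARD1, ATR and FANCF are lower in the neratinib and double-treated libraries in every phase, MRE11 is higher there in G1 and S cells and, in G2M cells, under the size rule for neratinib against DMSO, and BRCA1, EXO1 and RMI2 are dominated by the difference between S and G1 cells.

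Holding the phase mix fixed changed little for the genes with the lowest ratios. Each library was rebuilt from its 3 phases at the phase shares of DMSO, taken as shares of UMIs and not of cells. RAD51D was then at -0.93 against DMSO in place of -1.01, and RBBP8 at -0.75 in place of -0.80. The members' median moved from -0.18 to -0.11 against DMSO and from -0.15 to -0.04 against fulvestrant, while the median of all measured genes stayed at -0.16 and -0.15. Against DMSO 2 members were then higher and 9 lower (13.5% and 33.5% of all measured genes), and against fulvestrant 3 and 8 (13.6% and 32.1%).

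**Figure D4:**
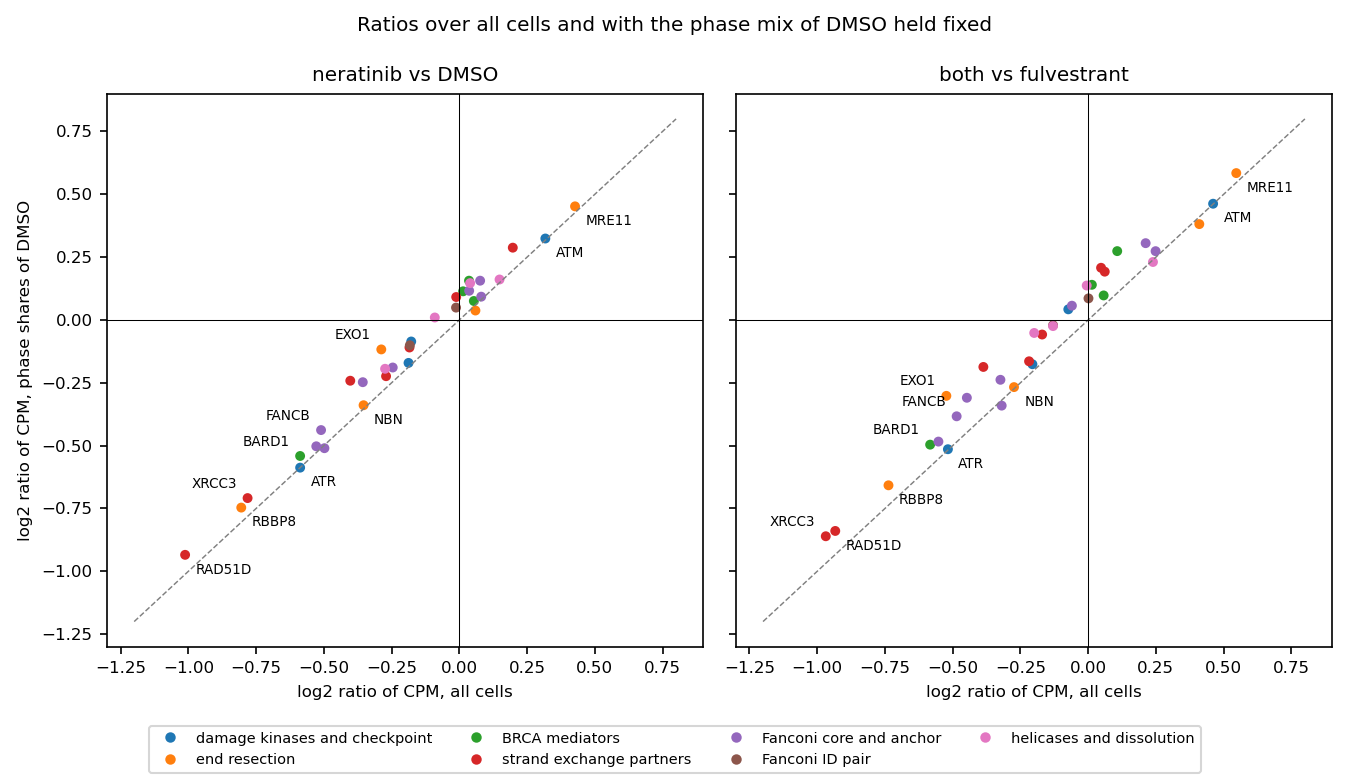
Log2 ratio of CPM over all cells (x axis) against the ratio with every library given the phase shares of DMSO UMIs (y axis) for the 34 genes, coloured by role, for neratinib against DMSO (left) and both drugs against fulvestrant (right). Points above the dashed line of equality moved up when the phase mix was held, most of all EXO1, while RAD51D, XRCC3, RBBP8 and ATR stayed at -0.51 or lower on both axes.

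Both drugs together were set against DMSO, a pair that shares its control with the single-drug pairs. There 2 members were higher, ATM (0.48 [0.39, 0.58]) and MRE11 (0.48 [0.40, 0.55]), and 9 were lower, beside 14.9% higher and 33.3% lower among all measured genes. With the total taken without mitochondrial transcripts the split was 4 higher and 8 lower, beside 19.4% and 26.4%. The 9 were ATR, RBBP8, BARD1, RAD51D, XRCC3, FANCA, FANCB, FANCC and FANCF, with RAD51D at -0.98 [-1.13, -0.83] and XRCC3 at -0.98 [-1.16, -0.80]. The median was -0.15, as over all measured genes. Of these 11 calls 9 held under all 7 alternatives, and FANCA and FANCB lost theirs without the cells over 20% mitochondrial UMIs.

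Few members passed the size rule with fulvestrant. Against DMSO 0 members were higher and 1 was lower, beside 1.23% higher and 1.8% lower among all measured genes, and the median was 0.00. The lower gene was RAD50 (-0.34 [-0.57, -0.12]), on 275 UMIs with fulvestrant and 428 with DMSO. Both drugs against neratinib had 0 higher and 0 lower, beside 1.57% and 2% of all measured genes, with a median of 0.04, and RAD50 was at 0.01 [-0.20, 0.22] there. No member passed in both pairs. EXO1 was next in size against DMSO, at 0.26 [0.14, 0.38], and at 0.03 [-0.11, 0.17] against neratinib. RAD54B, at 0.18 [0.04, 0.32] and 0.19 [0.04, 0.35], and XRCC2, at 0.16 [0.06, 0.25] and 0.22 [0.12, 0.32], had intervals above 0 in both pairs and stayed under the rule. The same held for BRCA1, at 0.09 [0.03, 0.16] and 0.16 [0.10, 0.23], and for BRCA2, at 0.12 [0.02, 0.22] and 0.12 [0.01, 0.23]. The share of all measured genes with intervals above 0 in both pairs was not counted. Within S cells against DMSO the intervals of RAD54B (0.12 [-0.08, 0.33]), BRCA1 (0.07 [-0.01, 0.16]) and BRCA2 (0.04 [-0.11, 0.19]) included 0. That of XRCC2 did not (0.19 [0.05, 0.32]). The part of the S share in these ratios was not tested. S cells of fulvestrant held EXO1 at 38.4 CPM, against 31.1 in DMSO, a ratio under the rule (0.30 [0.16, 0.45]). In the other pair the order was reversed, with 26.3 CPM in S cells of both drugs and 28.7 in those of neratinib.

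Other genes of the pathway, from a list of 49, had smaller shares of higher and of lower genes with neratinib than all measured genes had. Of 48 measured, 1 was higher and 12 were lower (25%) against DMSO, beside 13.6% higher and 33.3% lower among all measured genes. Against fulvestrant 5 were higher and 13 lower (27.1%), beside 13.8% and 32.4%. The medians were -0.14 and -0.11. The genes named here had the ratios farthest from 0 against DMSO among those past the rule in both pairs. CLSPN, which encodes Claspin, the adaptor through which ATR activates CHEK1, was at 44.3 CPM under DMSO and 50.8 under fulvestrant, against 22.6 under neratinib and 25 under the combination (-0.97 [-1.05, -0.89] and -1.02 [-1.10, -0.95]). ATRIP, the obligate partner of ATR, was at 5.88 CPM under DMSO and 4.40 under fulvestrant, against 3.12 under neratinib and 3.16 under the combination (-0.91 [-1.13, -0.70] and -0.48 [-0.70, -0.25]), and ETAA1, an activator of ATR, was higher at 5.22 CPM under DMSO and 5.33 under fulvestrant, against 10.0 under neratinib and 10.7 under the combination (0.94 [0.78, 1.10] and 1.01 [0.84, 1.17]). SHLD2, a shieldin subunit that protects ends from resection, was at 24.7 CPM under DMSO and 22.7 under fulvestrant, against 13.6 under neratinib and 13.5 under the combination (-0.86 and -0.75). ATRIP was also the only gene of this list past the rule with fulvestrant against DMSO (-0.42 [-0.61, -0.23]), and it was at 0.02 with both drugs against neratinib.

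End joining, the alternative route for breaks, had 1 gene higher and 2 lower of 9 measured in each neratinib pair (11.1% and 22.2%, against 13.6% and 33.3% and against 13.8% and 32.4% of all measured genes). The higher gene, named after its value was seen, was XRCC4 against DMSO (0.41) and POLM against fulvestrant (0.33). LIG4, its ligase, was lower at -0.56 [-0.86, -0.26] and -0.76 [-1.05, -0.46], and PAXX, an accessory factor, at -0.40 [-0.44, -0.37] and -0.44 [-0.48, -0.40]. Of 32 DNA replication genes 0 were higher and 8 lower (25%) against DMSO, below the 33.3% of all measured genes, and 0 were higher and 14 lower (43.8%) against fulvestrant, above the 32.4%. MCM10 (-0.84 and -0.71), CDC6 (-0.66 and -0.62), POLA2 (-0.57 and -0.59) and MCM6 (-0.55 and -0.53) were among them in both pairs, and the list's medians of -0.26 and -0.30 lay below those of the repair genes. With fulvestrant against DMSO neither list had a gene past the rule.

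Detection in single cells was limited by depth. With every cell thinned to 5000 UMIs, the share of DMSO cells with a UMI ran from 1.37% [1.05, 1.77] for FANCE (7.35% unthinned) to 54.0% [52.5, 55.5] for RAD51C (90.1%). For RAD51D the thinned share was 6.07% under DMSO and 5.28% under fulvestrant, against 2.74% under neratinib and 2.43% under the combination (22.5%, 22.6%, 12.4% and 12.8% unthinned). These libraries hold 1 cell line and so no cell type that should lack the genes. In barcodes with 20 to 100 UMIs the members stood at 0.521 to 1.83 times their level in cells, with a median of 0.954. Whether these barcodes hold free RNA, broken cells or shallow cells was not tested, nor was their part in the shares. BRCA1, at 0.521 times, had the lowest of these values.

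RAD51D, BRCA1, CHEK1, RAD50 and RAD54B share exons on the same strand with another counted gene in the GENCODE annotation, RAD51D with the read-through gene RAD51L3-RFFL. Reads from such shared exons cannot be assigned to 1 gene, so the levels of these 5 are uncertain.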

How the data were processed

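The deposited file holds UMI counts: per the submitters' processing notes the authors used Cell Ranger 3.1.0, and the notes name hg19. The table lists 33538 genes over 27179520 unfiltered barcodes. The gene identifiers match GRCh38 annotations, so only promoter coordinates, from RefSeq on GRCh38.p14, are printed. Barcodes end in a number that was matched to the number opening each sample title, a mapping no other label states. The sources used here do not say whether reads were evened between libraries.

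Cells needed at least 5000 UMIs and 500 genes. No doublet caller was run, and the 5% of cells with most UMIs were left out as an alternative. Counts were summed over the cells of a library, or of a phase in it, and divided by the total to give CPM. Log2 ratios carry 95% intervals from the exact conditional binomial of the 2 counts, levels have Poisson and shares Clopper-Pearson intervals, and all of these cover counting error only. The departure from additivity has a normal approximation on the log scale. Phase was called with score_genes_cell_cycle of scanpy 1.11.5 on log-normalised counts. The ratio step was tested on simulated counts. The tools were numpy 2.4.6, scipy 1.17.1, pandas 2.3.3 and matplotlib 3.10.9. Each group is 1 library, so no difference was tested.

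The members, gene lists and phase lists were chosen with earlier results of these data known. Every member past the size rule in a pair, or 1.5-fold between phases in DMSO, is given with its values. Of each other list up to 4 genes are named, those with the greatest absolute neratinib to DMSO ratio past the rule in both neratinib pairs. Alternatives changed the cells kept, the scaling, the floor on CPM, the size rule, the phase call and the phase mix.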

Additional observations from a re-analysis of the deposited data

Results flagged for a closer look

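RMI2, a subunit of the complex in which BLM dissolves joined DNA molecules, lay on opposite sides of 0 in the 2 fulvestrant pairs. Its log2 ratio was 0.13 [0.06, 0.19] for fulvestrant against DMSO (44.5 CPM with fulvestrant, 40.7 with DMSO) and -0.11 [-0.18, -0.04] for both drugs against neratinib (38.7 CPM with both drugs, 41.8 with neratinib). Both intervals lay off 0, both ratios were under the size rule, and with 1 library per group the difference was not tested.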

How the results depend on the processing

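Without cells over 20% mitochondrial UMIs, 2 members were higher and 9 lower with neratinib against DMSO, 8 and 7 with both drugs against DMSO and 7 and 8 with both drugs against fulvestrant, beside 13.6% and 29.3%, 15.6% and 28.7%, and 14.2% and 27.9% of all measured genes. The medians were -0.0043, 0.037 and 0.033, above the -0.13, -0.11 and -0.11 of all measured genes. In that choice of cells G2M made up 39.7% of neratinib and 26.6% of DMSO cells. The cause was not tested. Median-of-ratios scaling gave 2 higher with neratinib against DMSO and 5 with both drugs against fulvestrant. The total without mitochondrial transcripts gave 2 higher with neratinib and 4 with both drugs against DMSO. With the phase shares of DMSO 2 were higher with neratinib against DMSO, and the median of both drugs against fulvestrant was -0.038. With a 1.5-fold rule 0 were higher and 5 lower with neratinib against DMSO, 0 and 4 with both drugs against DMSO, 0 and 3 with both drugs against fulvestrant, and 0 were lower with fulvestrant against DMSO. A floor of 5 CPM likewise left 0 lower with fulvestrant against DMSO, since it takes out RAD50. The calls that held under all 7 alternatives of cells, scaling and phase mix were 8 of 12 with neratinib against DMSO, 9 of 14 with both drugs against fulvestrant and 9 of 11 with both drugs against DMSO. FANCE, RAD50 and RAD54L, with at most 485 UMIs per library, are limited by depth. No paired analysis was possible because each group is 1 library.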

Other observations

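The departure from additivity, the log2 ratio of both drugs to DMSO minus the ratios of the single drugs to DMSO, had an interval off 0 for 11 of the 34 members (32.4%), 7 above and 4 below the sum of the single drugs. Of all measured genes 21.4% had such an interval, 12.1% above and 9.25% below. RMI2 was at -0.24 [-0.33, -0.15] and EXO1 at -0.24 [-0.42, -0.05], below that sum, as were RAD51AP1 at -0.14 [-0.25, -0.02] and FANCG at -0.10 [-0.17, -0.02]. RAD50 was at 0.35 [0.05, 0.65], FANCF at 0.18 [0.07, 0.29], MRE11 at 0.12 [0.01, 0.22] and ATM at 0.14 [0.00, 0.28], above that sum. RMI1 (0.14 [0.00, 0.29]), CHEK1 (0.10 [0.00, 0.20]) and RAD51C (0.05 [0.01, 0.10]) lay above it with a lower bound at or close to 0. Of the 4 libraries, the one with fulvestrant alone had the highest level of EXO1 (13.6 CPM) and the lowest level of RAD50 (3.29 CPM). No departure was tested, since each rests on 4 single libraries.

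Within S cells, RAD50 was at -0.95 [-1.5, -0.42] with fulvestrant against DMSO, and XRCC2 was at 0.34 [0.19, 0.50] with both drugs against neratinib. FANCE was at 0.47 [0.07, 0.87] in G2M cells with fulvestrant against DMSO. These 3 values, out of 34 genes in 3 phases and 2 pairs, were the ones past the size rule for fulvestrant within a phase, where 1.54% to 2.42% of all measured genes passed in 1 direction in any 1 of these comparisons.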
